A study of Penicillium oxalicum with 6 samples.

Results

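In Penicillium oxalicum, 147 of 9822 locus tags were expressed at a medium level in parental mycelium and were at least 4-fold lower in mycelium in which POc04478 was silenced. They were chosen from the measured values. The parental mean had to be at least 50 and below 500 FPKM, the silenced mean at least 1 FPKM and at most 0.25 of the parental mean, and every silenced value had to lie below every parental value. FPKM is a fragment count scaled by transcript length and library size. The decrease of these genes is therefore a description and not a finding. Of 2873 locus tags in the medium range, 149 had a ratio of 0.25 or less, and 147 met every limit, which is 5.12% of that range.

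The silenced group is P. oxalicum ΔPoxKu70 mycelium with POc04478 silenced after 5 μM copper ions were added, in 3 libraries. The parental group is ΔPoxKu70 mycelium, in 3 libraries whose genotype field says WT and for which no copper is mentioned, so copper and silencing cannot be told apart. Whether the libraries of a group came from separate cultures is not stated, and p-values then reflect library-to-library spread that may be technical. Loss of PoxKu70, which belongs to the non-homologous end joining machinery, is shared by both groups. All mycelium grew for 24 h in glucose medium and then for 24 h in enzyme-production medium, whose carbon source is Avicel (microcrystalline cellulose) in the protocol and raw starch in the treatment field. A plate culture of the same length and temperature is also listed for every library. How the silencing construct was built and whether it rests on 1 transformant are not stated, and no marker genes are named by which the mycelium could be checked.

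Filamentous fungi that live on plant material secrete enzymes that break polysaccharides into sugars. The genes for these enzymes are switched by the carbon source through activators and repressors of transcription, and a move from glucose to cellulose is a common way to induce them. In many such fungi, genes that serve 1 pathway lie side by side on a chromosome and are transcribed together. The files and the reference table give the 147 genes locus tags only, with no product names, so no function is assigned to any of them here. They are ordered below by level, by their behaviour across libraries and by their place on the chromosomes.

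Each library listed 10899 IDs, of which 9737 to 9937 had a value above 0. The number of fragments is unknown, but steps among the low values put the depth of the libraries between 1 and 1.58 relative to parental replicate 1. This estimate is rough, since only 455 of 5378 ratios of low values between libraries lay within its tolerance. Across the 9341 IDs tested with limma, 24.4% were called higher and 30.4% lower in silenced mycelium at an adjusted p under 0.05. Log2 fold changes are silenced over parental on the log2(FPKM + 1) scale, and decreases in fold are ratios of mean FPKM. The median log2 fold change was -0.12 over all tested IDs. It was 0.0017 after the libraries were rescaled by median-of-ratios factors, and 119 of the 147 genes still met the limits after that rescaling. RNA came from whole mycelium, so fewer cells that transcribe a gene and less RNA per cell cannot be told apart.

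The silenced gene itself belongs to the set. POX_c04478, matched to POc04478 by its letter and number, had 15.9, 17.8 and 19.0 FPKM in the silenced libraries, against 159, 116 and 131 FPKM in the parental libraries. All silenced values were close together and far below the lowest parental value, and 13.0% of the parental mean remained. The gene next to it on chromosome III, POX_c04479, also met every limit. It had 15.1, 17.1 and 14.9 FPKM in the silenced libraries, against 115, 74.7 and 90.7 FPKM in the parental libraries, so that 16.8% remained. For both genes the limits required a ratio of at most 0.25 and no overlap between groups. Groups that did not overlap, with silenced lower, were seen in 36.6% of all tested IDs. On the log2(FPKM + 1) scale the fold changes were -2.87 ± 0.15 for POX_c04478 and -2.48 ± 0.18 for POX_c04479 (SE, n = 3 libraries per group). POX_c04477, on the other side, was listed at 0 in every library. Among the 147 genes POX_c04478 was no extreme, since their median ratio of silenced to parental mean was 0.186 and its own was 0.130.

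The 147 genes had silenced means of 2.16 to 102 FPKM, with a median of 19.3 FPKM, against parental means of 50.4 to 488 FPKM, with a median of 120 FPKM. The ratio of the means was at most 0.05 for 4 genes, above 0.05 and up to 0.1 for 13, up to 0.15 for 32, up to 0.2 for 42 and up to 0.25 for 56. Ratios above 0.1 thus made up most of the set, and the median decrease was 5.39-fold. Every gene kept at least 1 FPKM in each silenced library, so none was listed as absent there. All 147 passed the filter on low values and all 147 were called lower in limma, where 30.4% of all tested IDs were called lower and 54.8% in either direction. A ratio of 0.25 or less was found for 5.28% of tested IDs. Groups that did not overlap, with silenced lower, were required of the set and were seen in 36.6% of all tested IDs. Both contrasts were used to choose the genes, and nothing is read from these counts. The median log2 fold change was -2.35, within -6.11 to -1.80.

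**Figure D1:**
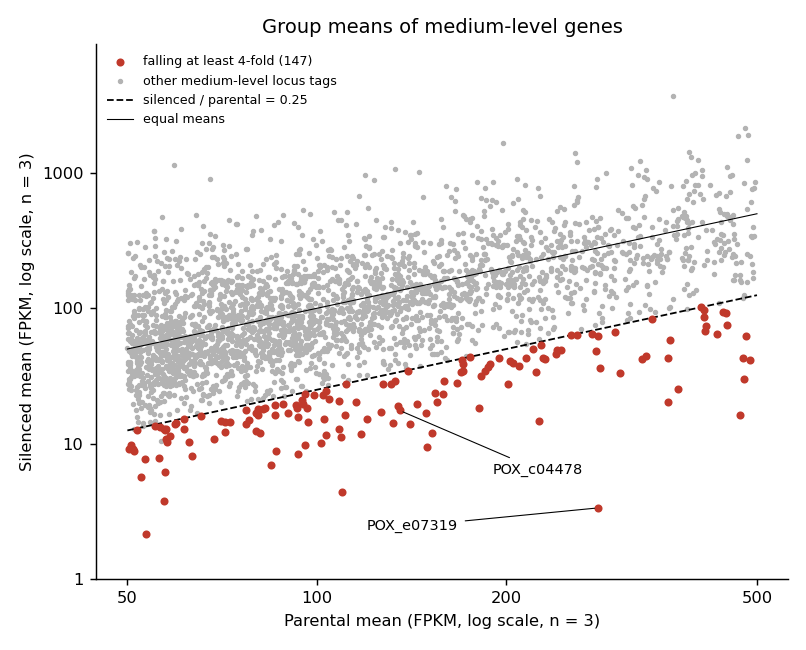
Mean FPKM of medium-level locus tags in the silenced libraries (vertical axis) against the parental libraries (horizontal axis), both on log scales, n = 3 each. Red points are the 147 genes at or below the dashed line of ratio 0.25, and grey points are the other medium-level locus tags with a silenced mean above 0, which spread on both sides of the solid line of equal means.

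The medium range as a whole did not move in this way. Its median ratio of silenced to parental mean was 0.870, and its median log2 fold change was -0.17. A ratio above 0.5 and below 2 was found for 1955 of the 2873 locus tags, a ratio above 0.25 and up to 0.5 for 405, a ratio of 2 to below 4 for 292 and a ratio of at least 4 for 72. Genes of the set made up 4.03% of locus tags with a parental mean of 50 to below 100 FPKM. They made up 5.16% of those with 100 to below 200 FPKM and 7.90% of those with 200 to below 500 FPKM. The parental mean sets these classes and is also the denominator of the ratio limit. A high value in a single parental library can move a gene up a class and into the set. Nothing on level is therefore read from these shares. The median decrease in these classes was 5.18-fold, 6.21-fold and 5.58-fold. These medians are taken within genes cut at a ratio of 0.25, and nothing on level and size of decrease is read from them.

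The limits cut through a continuous range of values. Just inside the ratio limit lay POX_f08186, POX_c03998 and POX_a00130, all 4.00-fold to 4.01-fold lower in silenced mycelium, and just outside it lay POX_g08776, POX_b02954 and POX_d05079, at 3.99-fold, 3.99-fold and 3.97-fold. At the lower end of the parental range, POX_a00173, POX_a01919 and POX_c04154 had parental means of 50.4, 50.7 and 50.7 FPKM. POX_g08794, POX_e06988 and POX_d05390 missed the limit at 49.6 FPKM each. At the upper end, POX_f08259, POX_e07207 and POX_c04307 entered with 488, 480 and 478 FPKM, and POX_g08577, POX_b03322 and POX_a00573 were left out with 518, 523 and 543 FPKM. POX_a00573 rested on parental replicate 1, with 1102, 236 and 291 FPKM in the parental libraries, and was not called in limma when any silenced library was left out. The floor of 1 FPKM in the silenced group removed no gene that met the other limits, and the lowest silenced means were those of POX_a01370, POX_e07319 and POX_a00813. The condition on overlap removed POX_d05239, which had 0, 0 and 31.2 FPKM in the silenced libraries, against 91.2, 78.5 and 0 FPKM in the parental libraries. POX_d05954, listed at 0 in all silenced libraries, had 42.4, 125 and 0 FPKM in the parental libraries and also fell outside.

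POX_e07319 showed the lowest ratio of the set by a wide margin. It had 5.24, 1.33 and 3.46 FPKM in the silenced libraries, against 343, 239 and 257 FPKM in the parental libraries, so that 1.195% of the parental mean was left. Its lowest parental value was 45.7-fold above its highest silenced value, where the median of that gap over the set was 3.81-fold. POX_e07244 followed with 17.8, 15.7 and 15.6 FPKM in silenced mycelium, against 800, 283 and 327 FPKM in parental mycelium. This was 28.7-fold lower, and 18.6-fold lower without parental replicate 1, which held the high value. POX_b03018 had 4.55, 4.89 and 3.66 FPKM in the silenced libraries, against 29.0, 208 and 91.8 FPKM in the parental libraries. The silenced values were alike and the parental values spread over a wide range, and the decrease of 25.1-fold was 13.8-fold without parental replicate 2. POX_a01370 had 1.69, 2.38 and 2.40 FPKM, the lowest silenced mean of the set, against 94.2, 40.7 and 25.7 FPKM in parental mycelium. Here too 1 parental library stood above the rest, and the decrease was 24.8-fold with it and 15.4-fold without parental replicate 1.

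The 6 genes next in order kept 5.64% to 6.72% of the parental mean. POX_a00813 was the most even of them in the parental group, with 2.95, 4.19 and 4.08 FPKM in the silenced libraries, against 60.4, 57.0 and 54.4 FPKM in the parental libraries. POX_c04730 had 25.03, 26.2 and 24.3 FPKM in silenced mycelium, against 536, 280 and 307 FPKM in parental mycelium. POX_c04730 was even in the silenced group, with a coefficient of variation (SD divided by the mean) of 3.84%, and spread in the parental group, with 37.5%. In POX_a00813 the coefficients were 18.4% in the silenced and 5.25% in the parental group. POX_c03483 had 18.5, 19.9 and 22.7 FPKM, against 259, 604 and 219 FPKM, and its decrease of 17.7-fold was 11.7-fold without parental replicate 2. POX_c04204 had 7.94, 8.45 and 12.02 FPKM in the silenced libraries, against 240, 101 and 108 FPKM in the parental libraries. In POX_c03483 and POX_c04204 the parental library with the highest value differed. POX_c04307 had 36.7, 33.7 and 20.04 FPKM in silenced mycelium, against 152, 654 and 627 FPKM in parental mycelium. POX_e07302 had 16.7, 15.5 and 12.1 FPKM in silenced mycelium, against 78.3, 364 and 234 FPKM in parental mycelium. In these last genes parental replicate 1 was the low library of its group.

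**Figure D2:**
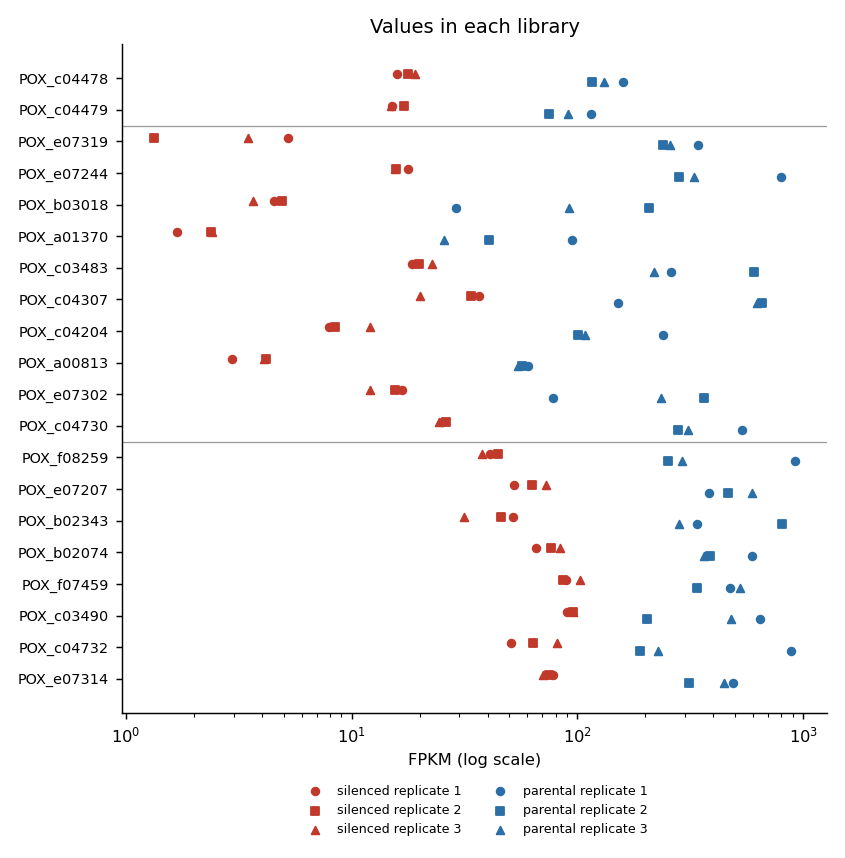
FPKM in each library on a log axis for POX_c04478 and POX_c04479 (top), the 10 genes with the lowest ratio of silenced to parental mean (middle) and the genes with the highest parental means not already shown (bottom). Symbols mark the replicate and colours the group, red for silenced and blue for parental. Within a gene no silenced value reaches a parental one, which the limits required and which was seen in 36.6% of all tested IDs. Parental values often spread more widely, as in POX_b03018.

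Of the 10 genes with the highest parental means, POX_f08259, POX_e07207, POX_c04307, POX_b02343 and POX_e07244 lay between 469.8 and 488 FPKM. POX_f08259 had 40.9, 44.6 and 37.9 FPKM in the silenced libraries, against 924, 252 and 289 FPKM in the parental libraries. Its place at the top of the range came from parental replicate 1, without which the decrease was 6.58-fold in place of 11.9-fold. POX_e07207 had 52.3, 62.9 and 72.3 FPKM in silenced mycelium, against 382, 465 and 593 FPKM in parental mycelium. POX_b02343 had 52.1, 45.9 and 31.4 FPKM in silenced mycelium, against 339, 806 and 281 FPKM in parental mycelium. The decrease of POX_e07207 was 7.69-fold, and that of POX_b02343 was 11.03-fold with all libraries and 7.20-fold without parental replicate 2. The other 5, POX_b02074, POX_f07459, POX_c03490, POX_c04732 and POX_e07314, kept silenced means of 65.1 to 93.7 FPKM, 4.72-fold to 6.65-fold below the parental means. POX_c04732 was 3.21-fold lower without parental replicate 1, in which it had 880 FPKM against 190 and 228 FPKM in parental replicates 2 and 3.

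The summed FPKM of the 147 genes showed the weight of the set in each library. The sum was 3697, 4113 and 4434 FPKM in the silenced libraries, which was 0.298%, 0.325% and 0.344% of all FPKM in the library. It was 27612, 23473 and 23131 FPKM in the parental libraries, or 2.08%, 1.82% and 1.77%. The medians over the set were 17.7, 19.3 and 21.6 FPKM in silenced mycelium, against 122, 111 and 113 FPKM in parental mycelium. For the other 2726 medium-level locus tags the medians were 95.8, 103 and 108 FPKM in silenced mycelium, against 94.1, 97.7 and 98.6 FPKM in parental mycelium. The limits required a decrease of each gene in the set and took these genes out of the others. Nothing is therefore read from the difference in sums and medians. Silenced replicate 1 held the lowest of the silenced values for 105 of the 147 genes (71.4%) and for 57.9% of the other medium-level locus tags. Its median-of-ratios size factor, 0.905, was also the smallest, against 0.960 and 1.01 in silenced replicates 2 and 3. The part of library scaling in this order was not tested.

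Within groups, the genes varied more between parental than between silenced libraries. The median coefficient of variation was 14.4% over the silenced libraries and 21.7% over the parental libraries, and it was larger in the parental group for 103 of the 147. For the other medium-level locus tags it was 8.27% in silenced and 17.8% in parental mycelium, with the larger value in the parental group for 80.3%. The steadiest genes in the silenced group were POX_h09389, POX_f08247 and POX_c04698. POX_h09389 had 34.1, 34.1 and 33.9 FPKM there, against 80.0, 236 and 192 FPKM in the parental libraries. The least steady in the silenced group was POX_c04187, at 6.77, 6.53 and 25.3 FPKM, against 101, 112 and 112 FPKM in the parental libraries. Its decrease of 8.44-fold was 16.3-fold without silenced replicate 3. POX_a00099, at 15.3, 22.3 and 4.97 FPKM in the silenced libraries, and POX_e07319 also had a coefficient above 50% there. In the parental group the steadiest were POX_d06141, POX_b03467 and POX_e07095, with coefficients of 3.67% to 5.00%, and the least steady were POX_c04732, POX_d05590 and POX_b03018, with 83.0% to 89.7%.

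Parental replicate 1 was high in a number of these genes. In 18 of the 147 (12.2%) it lay at least 2-fold above both other parental libraries, which held for 41 of the other 2726 medium-level locus tags (1.504%). Among the 47 locus tags with a parental mean of at least 500 FPKM that met the other limits, it held for 5 (10.6%), a share near that of the set. In 6 of the 147 (4.08%) it lay at least 2-fold below both, which held for 8.40% of the others. The limits favour genes that are high in any parental library, so these shares are given as a description. POX_d05590 and its neighbour POX_d05591 on chromosome IV were among the 18. POX_d05590 had 8.80, 12.4 and 14.9 FPKM in the silenced libraries, against 304, 73.4 and 79.4 FPKM in the parental libraries. POX_d05591 had 7.60, 9.92 and 12.8 FPKM in the silenced libraries, against 197, 49.8 and 57.3 FPKM in the parental libraries. The neighbours shared the high value in parental replicate 1, and without it they were 6.35-fold and 5.30-fold lower in silenced mycelium, in place of 12.7-fold and 10.05-fold. POX_d06116 and POX_d06118, which lie close together on the same chromosome, also belonged to the 18. POX_d06116 had 63.4, 90.8 and 105 FPKM in silenced mycelium, against 761, 139 and 335 FPKM in parental mycelium. Its decrease was 4.76-fold with all libraries and 2.74-fold without parental replicate 1, the lowest value that leaving out 1 library gave for any of the 147. For POX_d06118 the decrease was 4.48-fold with all libraries and 2.86-fold without parental replicate 1. Of the 18 genes, 8 were less than 4-fold lower once parental replicate 1 was left out.

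**Figure D3:**
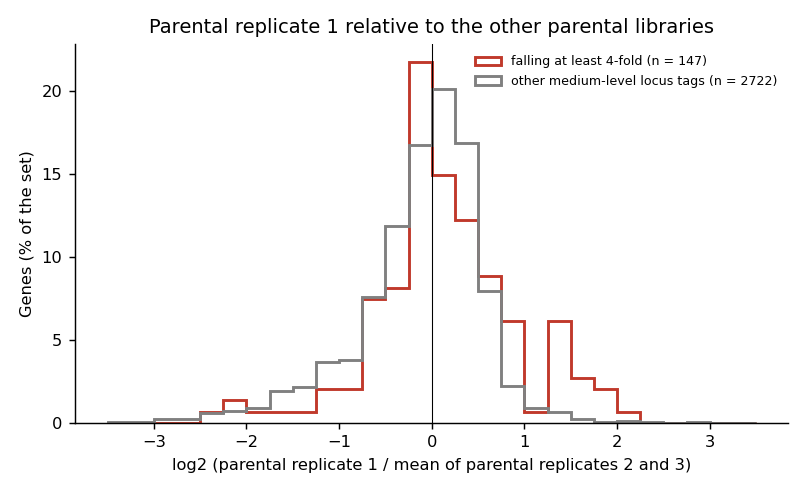
Distribution of the log2 ratio of parental replicate 1 to the mean of parental replicates 2 and 3, as percent of genes in bins, for the 147 genes (red) and for the other medium-level locus tags with values above 0 (grey). The red line has a separate shoulder to the right of 1, where 18 genes lie at least 2-fold above both other parental libraries.

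Across the set, 111 of the 147 genes stayed at least 4-fold lower whichever library was left out. Leaving out 1 library moved the decrease by over 1.5 times in 20 genes, and this was parental replicate 1 in 16 of them, parental replicate 2 in 3 and silenced replicate 3 in 1. When the limits were applied anew without parental replicate 1, 148 genes met them, of which 125 were shared with the 147. The lowest parental value was at least 4-fold above the highest silenced value in 64 genes, at least 2-fold above it in 141 and less than 1.5-fold above it in 3. The 3 were POX_e07279, POX_b02298 and POX_d06116, which were also those not called in limma when certain single libraries were left out. POX_e07279 had 56.5, 62.9 and 73.0 FPKM in silenced mycelium, against 83.1, 370 and 368 FPKM in parental mycelium, and was called in the full fit and without parental replicate 1 but in no other fit that left out a library. POX_d06116 was not called without any 1 silenced library or without parental replicate 3, and POX_b02298 was not called without silenced replicate 1 or parental replicate 2.

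RefSeq's annotation of strain HP7-1 (assembly ASM172317v3) placed 146 of the 147 genes on the 8 chromosomes, and POX_d05445 was not among its placed protein-coding genes. They were found on every chromosome. Chromosome III held 26, which was 7.45% of its medium-level locus tags, and chromosome VII held 17, or 7.08%. Chromosome I, with the most genes, held 21, or 3.59%, and chromosome II held 19, or 4.20%. On chromosomes IV, V, VI and VIII the shares were 4.96%, 4.15%, 6.07% and 6.30%. Of the placed genes, 12 lay among the outermost 20 protein-coding genes at an end of an assembled chromosome. That was 8.22% of the set, against 2.07% of the other medium-level locus tags and 3.30% of all placed genes. They included POX_c03483, POX_c03490 and POX_c04779 on chromosome III, and POX_e07314 and POX_e07319 at 1 end of chromosome V. The distance of 20 genes was chosen after the values were seen.

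**Figure D4:**
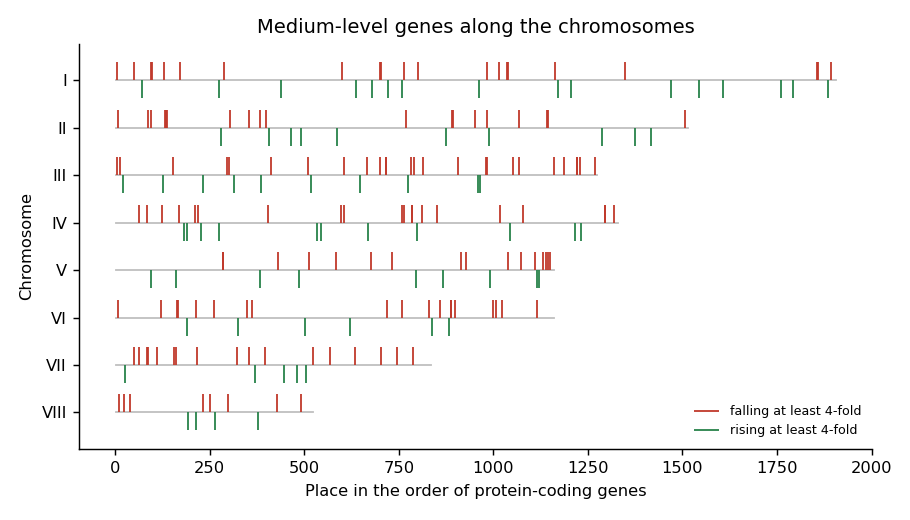
Place of the medium-level genes along each chromosome, in the order of protein-coding genes. Red ticks above the line mark the 146 placed genes falling at least 4-fold and green ticks below it the placed medium-level genes rising at least 4-fold; red ticks stand side by side in 8 places and no green ticks do.

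Within the set, 8 pairs of genes adjoined each other, 16 genes or 10.96% of those placed, and no 3 stood in a row. Of the 72 medium-level locus tags that were at least 4-fold higher in silenced mycelium, with groups that did not overlap, none adjoined another. Another gene of the same set lay within 5 genes for 36 of the 146 falling genes (24.7%) and for 2 of the placed rising genes (2.82%). The sets differ in size, and a larger set has more chances of neighbours. POX_c04203 and POX_c04204 formed a pair on chromosome III. POX_c04203 had 30.4, 39.9 and 55.7 FPKM in the silenced libraries, against 272, 374 and 339 FPKM in the parental libraries. It was 7.83-fold lower, and POX_c04204 15.8-fold lower. In POX_a00712 and POX_a00713 on chromosome I the decreases were 12.2-fold and 9.11-fold, at 6.91 ± 0.57 and 33.3 ± 8.40 FPKM in silenced mycelium, against 84.5 ± 21.1 and 303 ± 113 FPKM in parental mycelium (SD, n = 3). On the sides of this pair, POX_a00711 rose, at 60.6 FPKM in silenced and 30.5 FPKM in parental mycelium, and POX_a00714 did not pass the test. POX_e06440 and POX_e06441 on chromosome V, 9.80-fold and 6.92-fold lower, likewise lay between POX_e06439, which rose to 66.4 FPKM in silenced mycelium, against 26.1 FPKM in parental mycelium, and POX_e06442, which did not pass the test. The pair POX_b03096 and POX_b03097 on chromosome II, 4.09-fold and 4.42-fold lower, adjoined POX_b03098, which rose to 159 FPKM in silenced mycelium, against 73.0 FPKM in parental mycelium. POX_f08247 and POX_f08248 on chromosome VI had silenced means of 48.1 and 48.8 FPKM, against parental means of 278 and 244 FPKM, and without parental replicate 1 the decrease of POX_f08248 was 3.17-fold in place of 5.01-fold. Other flanks of pairs were called lower, as were 30.4% of all tested IDs. POX_f08249 had 7.55 FPKM in silenced and 18.8 FPKM in parental mycelium. Around POX_d05590 and POX_d05591, POX_d05589 had 5.16 and 20.3 FPKM, and POX_d05592 had 22.7 and 49.8 FPKM. POX_b02076, beside POX_b02075, had 8.08 and 25.4 FPKM.

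Other genes of the set stood beside abundant genes that fell too, and 7 adjoined a gene with a parental mean of at least 500 FPKM that was at least 4-fold lower in silenced mycelium. POX_g08576 on chromosome VII had 32.8, 35.4 and 41.2 FPKM in the silenced libraries, against 305, 359 and 180 FPKM in the parental libraries. On its sides, POX_g08575 had silenced and parental means of 94.6 and 1722 FPKM, and POX_g08577 of 37.4 and 518 FPKM. All 3 silenced values lay below all 3 parental values in POX_g08575 and POX_g08577, as in 36.6% of all tested IDs. The limits required this of POX_g08576. POX_e07207 on chromosome V lay between POX_e07208, at 414 FPKM in silenced and 1755 FPKM in parental mycelium, and POX_e07206, at 2.48 FPKM in silenced and 9.76 FPKM in parental mycelium. The decreases of POX_e07208, POX_e07207 and POX_e07206 were 4.24-fold, 7.69-fold and 3.94-fold, at very different levels. In POX_c04730 and POX_c04732 on chromosome III, the gene between them, POX_c04731, had 30.3 FPKM in silenced and 576 FPKM in parental mycelium. POX_b02072, POX_b02074 and POX_b02075 on chromosome II surround POX_b02073, and all 4 fell, by 6.597-fold, 5.96-fold, 10.05-fold and 8.60-fold in the order named, with POX_b02075 at 6.61-fold without parental replicate 1.

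Decreases also appeared in neighbours at low level. POX_a01371, next to POX_a01370, had 2.52, 2.23 and 2.49 FPKM in the silenced libraries, against 65.4, 23.5 and 24.4 FPKM in the parental libraries. It shared the high value in parental replicate 1, without which it was 9.92-fold lower in place of 15.6-fold. POX_c04308, next to POX_c04307, had 1.82 FPKM in silenced and 17.8 FPKM in parental mycelium. In both POX_c04307 and POX_c04308 parental replicate 1 was the lowest parental library. POX_b02840 and POX_b02841, between POX_b02839 and POX_b02842, had silenced means of 2.87 and 4.67 FPKM, against parental means of 40.3 and 43.7 FPKM. These 4 consecutive genes were 14.0-fold, 9.36-fold, 5.59-fold and 8.43-fold lower in the order named. Reads of adjoining genes that overlap could not be told apart, because no strand-specific step is stated.

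The direct neighbours of the 147 genes were counted, since the limits did not use the neighbours' own values. The counts are still not independent of the choice of the set. Adjoining genes could share a high or low library, as POX_a01370 and POX_a01371 shared the high parental replicate 1. Reads of overlapping genes could not be told apart either. Of 230 tested locus tags that adjoined a gene of the set and were not in it, 97 fell (42.2%), 34 rose (14.8%) and 99 did not pass the test (limma, adjusted p under 0.05). Over all 9341 tested IDs 30.4% fell and 24.4% rose. The median log2 fold change of these neighbours was -0.42, against -0.12 over all tested IDs. At a distance of 2 genes 34.9% fell and 23.1% rose, and at 3 genes 29.4% fell and 28.1% rose, close to the shares of all tested IDs. Of the 97 neighbours that fell, 58 had a parental mean below 50 FPKM, 30 lay in the medium range and 9 were at 500 FPKM or more. The difference of these shares from those of all tested IDs was not tested, since neighbours of 1 region are not independent.

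**Figure D5:**
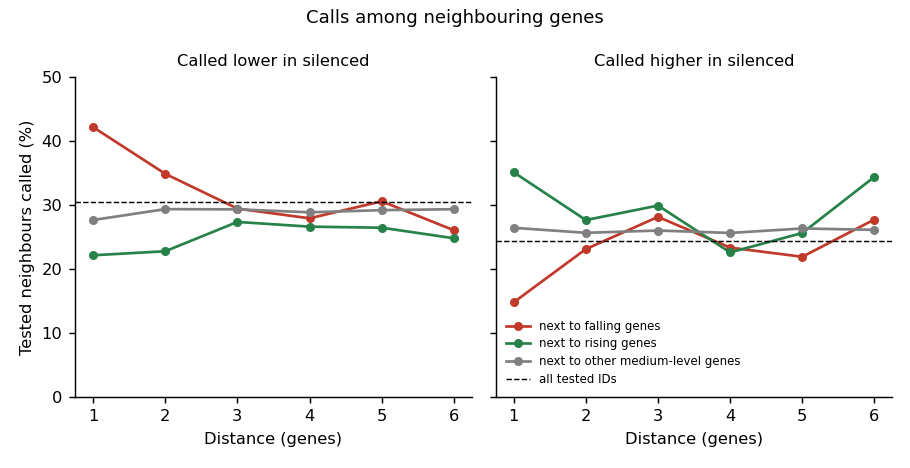
Share of tested neighbouring locus tags called lower (left) and higher (right) in silenced mycelium at distances of 1 to 6 genes from falling (red), rising (green) and other (grey) medium-level genes, with the share over all tested IDs as a dashed line. Next to falling genes 42.2% were called lower and 14.8% higher, and by a distance of 3 genes the shares were near the dashed lines.

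The direct neighbours of the 72 rising genes leaned the other way. Of 131 tested, 29 fell (22.1%) and 46 rose (35.1%), with a median log2 fold change of 0.014. For the other medium-level locus tags 27.7% of the direct neighbours fell and 26.4% rose. After median-of-ratios scaling 40.4% of the neighbours of falling genes fell and 17.8% rose, against 26.0% and 28.2% of all tested IDs on that scale. Both neighbours were tested and outside the set for 93 of the 147 genes, and both fell for 18 of these (19.4%) and both rose for 1 (1.08%). For the other medium-level locus tags with such neighbours, 2100 in all, both fell for 7.62% and both rose for 6.95%.

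Some genes of the set adjoined genes that moved in the opposite direction. Among the direct neighbours, the ratio of silenced to parental mean was at least 4 for 6 and at most 0.25 for 22. POX_f08370 on chromosome VI, which had 63.1 ± 13.6 FPKM in silenced and 259 ± 51.4 FPKM in parental mycelium (SD, n = 3 each), lay beside POX_f08371. POX_f08371 had 168, 203 and 271 FPKM in the silenced libraries, against 2.95, 15.5 and 21.0 FPKM in the parental libraries (log2 fold change 4.22, limma adjusted p = 0.0016). POX_b02031 on chromosome II had 13.5, 17.1 and 18.3 FPKM in silenced mycelium, against 207, 54.6 and 70.9 FPKM in parental mycelium. Its decrease was 6.79-fold, and 3.84-fold without parental replicate 1. Beside it, POX_b02030 had 1546, 1718 and 1471 FPKM in the silenced libraries, against 646, 555 and 463 FPKM in the parental libraries (log2 fold change 1.52, limma adjusted p = 0.00069). POX_g08683 on chromosome VII, 5.26-fold lower, adjoined POX_g08684, which had 24.4 FPKM in silenced and 3.47 FPKM in parental mycelium. In POX_f08371, POX_b02030 and POX_g08684 no silenced value overlapped a parental value, which held with silenced higher for 29.2% of all tested IDs.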

How the data were processed

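RNA from P. oxalicum mycelium was sequenced in 3 silenced and 3 parental libraries, after poly(A) selection with no strand-specific step stated. The authors deposited 1 table of FPKM values per library. Per the submitters' processing notes, bcl2fastq and HISAT2 were used. The counter, the annotation and the build are each not given in the sources used. Fragment totals are unknown, so no counting interval is given, and the number of libraries limits the precision.

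The 6 tables were joined by ID, and 9822 POX locus tags were separated from 1077 IDs without one. Of all IDs, those reaching 1 FPKM in 3 or more libraries were tested on log2(FPKM + 1) with limma 3.58.1 in R 4.3.3, with a variance trend and Benjamini-Hochberg adjustment over all 9341, and calls were made under 0.05. This scale understates the change of low genes. The fit was tested on simulated data. An exact permutation test of 3 against 3 libraries cannot go below p = 0.1 and was not used. Alternatives were other pseudocounts and filters, median-of-ratios scaling, no variance trend, other limits for the set, a replicate block, and each library left out.

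Of the locus tags, 9718 matched the RefSeq table, which was used for chromosome and gene order only, since the build of the files is unknown. The genes named by rule are POX_c04478 and its neighbours, the 10 genes with the lowest ratio, the 10 with the highest parental mean, the 3 on each side of every limit, the 3 with the highest and lowest coefficient of variation in each group, and any gene that missed only the overlap condition. Other named genes were chosen after their values were seen. The members and lists were chosen with earlier results of these data known. No promoter sequences or product names were used here, so motifs and pathway lists were not analysed.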

Additional observations from a re-analysis of the deposited data

How the results depend on the processing

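All 147 genes were called lower under the other pseudocounts, filters, scaling and variance settings, where 26.0% to 31.0% of all tested IDs were lower. With 1 library left out 144 to 147 were called lower, against 21.8% to 33.1% of all tested IDs. The limits used the same contrast, so nothing is read from these counts. The median log2 fold change of the 147 genes was -2.35. It was -2.15 with a pseudocount of 5, and -2.45 to -2.24 with 1 library left out. A limit of 0.2 on the ratio left 91 genes in place of 147 and a limit of 0.3 gave 218, and 136 to 174 genes met the limits without 1 library. The number of changed IDs, 5118, was 3603 to 5576 without 1 library. The neighbours called lower were then 83 to 101 in place of 97. These were 36.2% to 44.3% of the tested neighbours, against 21.8% to 33.1% of all tested IDs. Replicate numbers did not pair the libraries (correlations of deviations 0.0014, 0.029 and 0.123). With the replicate number as a block 4667 IDs were changed, and 147 genes of the set were lower. So were 94 neighbours, which was 40.9% of those tested, against 27.2% of all tested IDs. POX_a00573, just above the range, was not called without silenced replicate 1, 2 or 3 (limma adjusted p = 0.108, 0.0887 and 0.0733). For the genes named by rule, 579 values under other settings kept direction and call, the 3 of POX_a00573 lost the call and none reversed. POX_e07279, POX_d06116 and POX_b02298 are outside that rule and also lost the call without certain single libraries. Unknown depth and 3 libraries per group limit every value, and parental replicate 1 weighs on the decrease of 16 genes.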

Other observations

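Among the 43 IDs without a locus tag in the medium range, 12 met the same limits (27.9%), against 5.12% of the locus tags. Their decreases in silenced mycelium were 4.01-fold to 35.2-fold. In 4 of the 12 the parental SD was above the parental mean, and parental replicate 1 was the highest library. The decreases of these 4 were 35.2-fold, 32.4-fold, 22.4-fold and 11.4-fold with all libraries, and 3.23-fold, 3.56-fold, 4.79-fold and 4.05-fold without parental replicate 1. These IDs carry no gene name, and their difference in share was not tested.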
